A study of Mus musculus with 4 samples.

Results

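Imprinted genes are read mainly or only from the copy inherited from one parent, and many of them set the growth of the embryo and placenta. Genes read from the father's copy tend to promote growth and genes read from the mother's copy tend to restrain it, and the mark that tells the copies apart is methylation of CpG sites laid down in the germ line. Several of these genes are high together in the mesenchyme, muscle and other growing tissues of the midgestation embryo and decline together after birth. This network is represented here by 10 genes chosen by name out of 46983 genes in each table. They are the paternally expressed Igf2, Dlk1, Mest, Peg10, Peg3, Ndn and Plagl1 and the maternally expressed H19, Meg3 and Grb10, and all 10 were found and had a mean of at least 1 TPM (a level of transcripts scaled to gene length and to the total of the library).

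The levels come from RNA sequencing of mouse larynx tissue at E10.5, at 32 to 35 somites, in 4 libraries of 3 pooled larynxes each. The 2 control pools, numbered 4 and 6, were Swiss Webster WT embryos. The 2 mutant pools, numbered 1 and 2, carried the Shhtm1amc null allele of Sonic hedgehog, which was kept on the same background. The genotype label of the mutants reads Shhtm1amc Shh+/-, while the text on the study's design and its methods call them Shh-/-, the name used here. The question put to these genes was whether their RNA levels differed between larynx pools with and without this Hedgehog ligand. The sources do not say whether the pools came from separate litters, so the tests measure the spread between these pools. The RNA was read without regard to parental allele, and in bulk tissue fewer cells of a type cannot be told apart from less RNA per cell.

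The depth worked out from the tables was about 18300000 aligned reads for Shh-/- pool 1 and 37900000 to 41700000 for the other 3 libraries. RNA integrity (RIN, higher for more intact RNA) was 8.0 and 7.7 in Shh-/- pools 1 and 2. It was 7.7 in WT pool 4 and 9.0 in WT pool 6, and its part in the values was not tested. Shh itself was at 10.4 and 10.8 TPM in the mutant pools against 23.7 and 42.1 TPM in the WT pools, and the sources used here do not say which part of the gene the allele removes. Of 2 direct Hedgehog targets, Ptch1 was at 12.9 and 13.8 TPM against 57.8 and 55.1 TPM (log2 fold change -2.0, limma adjusted p = 0.0319). Gli1 was at 3.20 and 8.45 TPM against 41.7 and 32.9 TPM. The foregut epithelial factors were found in every pool, with Foxa2 at 5.34 and 9.12 TPM in the mutant pools against 29.2 and 39.8 TPM. Nkx2-1 was at 6.16 and 3.61 TPM against 15.9 and 17.9 TPM. Sox2 overlapped between genotypes, at 52.2 and 37.9 TPM against 39.5 and 47.3 TPM. One library stood apart from the rest. In WT pool 4, 8 genes of hepatoblasts and yolk sac endoderm summed to 3082 TPM, against 34.9 TPM in WT pool 6 and 13.6 and 13.2 TPM in the mutant pools. Most of it was Afp, the main serum protein of fetal liver and yolk sac, at 2358 TPM. Igf2, H19 and Dlk1 are also known to be high in fetal liver, so the log2 fold changes of the members are given with and without WT pool 4.

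No gene of the network passed the limma test used here across all genes. Igf2, H19, Dlk1, Meg3, Mest, Peg10 and Ndn were higher in both mutant pools than in both WT pools. Plagl1 was lower in both, and the ranges of Peg3 and Grb10 overlapped. In the limma fit over 16972 genes with a mean of at least 1 TPM, 0 of 10 members had an adjusted p under 0.05, where 0.725% of all genes did. The 10 genes, with Mest, Igf2 and H19 making up most of the total, summed to 6074 and 4940 TPM in the mutant pools and to 4187 and 4006 TPM in the WT pools, which is 0.607%, 0.494%, 0.419% and 0.401% of the total.

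**Figure D1:**
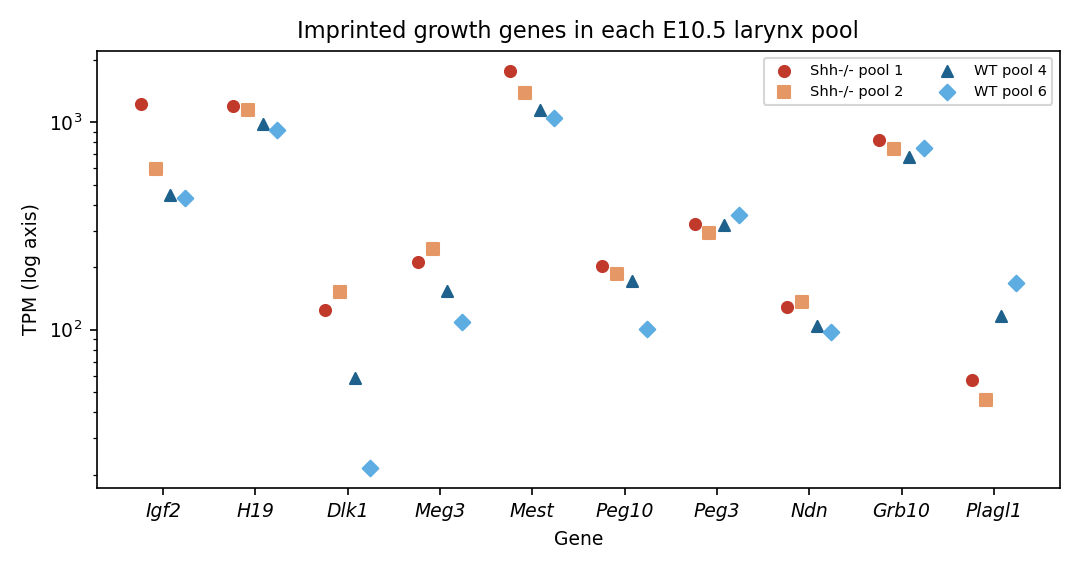
Level of each gene (TPM, log axis) in each of the 4 pools of 3 larynxes, with mutant pools in red and orange and WT pools in blue. Igf2 separates Shh-/- pool 1 at 1222 TPM from the other 3 pools at 432 to 595 TPM, Dlk1 runs from 21.5 TPM in WT pool 6 to 153 TPM in Shh-/- pool 2, and Plagl1 is the gene for which both WT points lie above both mutant points.

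These counts are set beside those over all tested genes. Both mutant pools lay above both WT pools for 7 of 10 members and for 38.0% of all tested genes, and below them for 1 of 10 members and for 22.7% of all tested genes. Of the 3866 genes with a mean of at least 50 TPM, 1254 lay above and 1249 below. At an unadjusted p under 0.05 in limma, 6 members were higher and 1 was lower, where 17.5% of tested genes were higher and 7.22% were lower. Without WT pool 6 the number of members at this threshold fell from 7 to 3. The median log2 fold change was 0.45 over the 10 members and 0.08 over all tested genes, and it was -0.01 over the 3866 genes with a mean of at least 50 TPM. With WT pool 4 left out, the 7 higher members were still higher and 2 members, Peg3 and Plagl1, were lower, where 49.5% and 32.0% of all tested genes were. The same 2 genes were lower when Shh-/- pool 1 was left out, where 33.6% of all tested genes were. The median absolute log2 difference between pools of one genotype was 0.18 for the members in the mutants and 0.15 in WT. It was 0.19 and 0.18 over all tested genes. Over genes with a mean of at least 50 TPM, which all 10 members have, it was 0.14 and 0.12, less than for the members. For a single gene, the smallest two-sided p that exact permutation of these 4 pools allows is 0.333.

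**Figure D2:**
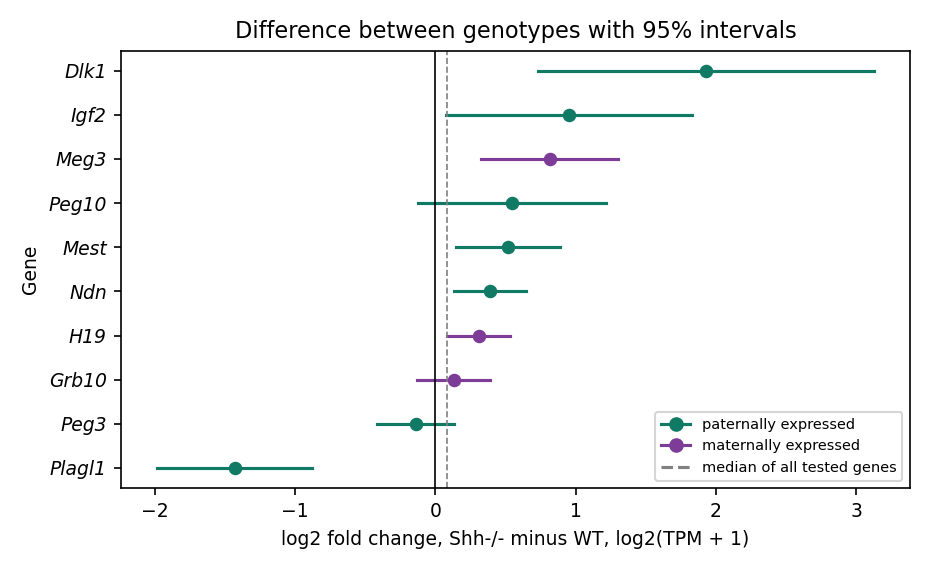
Difference between genotypes for each gene as a log2 fold change of TPM + 1, Shh-/- minus WT, with its 95% interval from limma. Green marks paternally and purple maternally expressed genes, and the dashed line is the median of all tested genes at 0.08. Dlk1 at 1.93 and Plagl1 at -1.43 lie at the ends, and the intervals of Peg10, Grb10 and Peg3 span 0.

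Igf2 and H19 are neighbours at the end of chromosome 7 and share enhancers. Igf2 (chr7:142650766-142666816, minus strand, coordinates on mm10 throughout) encodes insulin-like growth factor 2, the main fetal growth factor of the family. It was at 1222 TPM in Shh-/- pool 1 and 595 TPM in Shh-/- pool 2, against 448 and 432 TPM in WT pools 4 and 6. Both mutant pools were above both WT pools, but the mutant pools differed from each other more than the second of them differed from WT. The means were 909 ± 444 TPM and 440 ± 11.4 TPM (SD, n = 2 each). On the log2 scale Igf2 was 0.95 higher (SE 0.34, limma adjusted p = 0.181). Without Shh-/- pool 1, the most shallow library, the log2 fold change was 0.43, without Shh-/- pool 2 it was 1.47, and without WT pool 4 it was 0.98. Igf2 ranked 86th of all genes by level in Shh-/- pool 1 and 215th, 304th and 310th in Shh-/- pool 2 and WT pools 4 and 6.

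H19 (chr7:142575529-142578143, minus strand) is a long noncoding RNA that restrains growth and carries a miRNA in its first exon. It was at 1205 and 1151 TPM in the mutant pools and at 981 and 921 TPM in the WT pools. The 4 pools fell into 2 close pairs, 1178 ± 38.0 TPM and 951 ± 42.6 TPM (SD, n = 2 each). H19 was 0.31 higher on the log2 scale (SE 0.09, limma adjusted p = 0.138), and 0.35 higher without WT pool 4. A correction for GC content and gene length took the difference of H19 to 0.01 and that of Igf2 to 0.57 on the log2 scale, so the size for both genes depends on that step.

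The ratio of Igf2 to H19 in TPM was 1.02 in Shh-/- pool 1, 0.517 in Shh-/- pool 2, 0.457 in WT pool 4 and 0.469 in WT pool 6. Shh-/- pool 1 stood apart and the other 3 libraries lay close together. In the coverage column the ratio was 0.379 in Shh-/- pool 1 and 0.210 to 0.236 in the others. The pools kept their order, but the distance of Shh-/- pool 1 from the rest depended on the measure. The ratios do not show how the levels of the 2 genes stand to each other. The haemoglobin share of the RNA was lowest in the same pool, at 1.18% of TPM against 1.63% to 1.85% in the rest, and its part in the ratio was not tested.

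**Figure D3:**
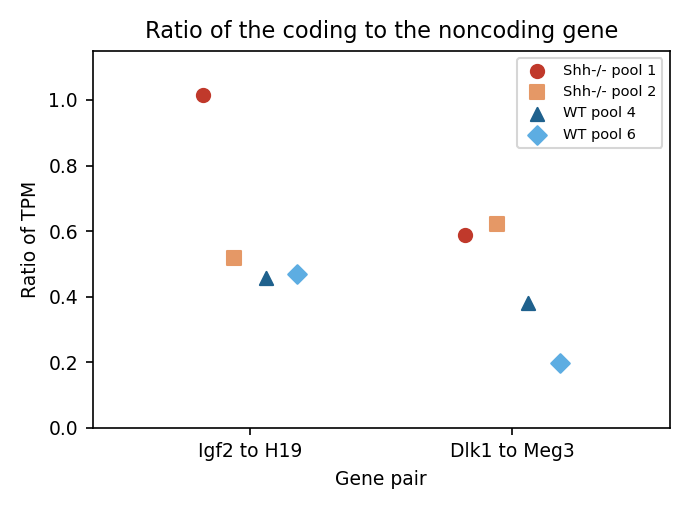
Ratio of the TPM of the protein-coding gene to that of its noncoding neighbour in each pool. For Igf2 to H19, Shh-/- pool 1 lies at 1.02 and the other 3 pools between 0.457 and 0.517; for Dlk1 to Meg3, both mutant pools, at 0.588 and 0.621, lie above the WT pools at 0.380 and 0.197.

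Dlk1 and Meg3 are paired in a similar way on chromosome 12, with Dlk1 read from the father's copy and Meg3 from the mother's. Dlk1 (chr12:109452823-109463336, plus strand) encodes a membrane protein of the Delta family that holds precursor cells, including those of fat and muscle, in an undifferentiated state. It was at 125 TPM in Shh-/- pool 1 and 153 TPM in Shh-/- pool 2, against 58.3 TPM in WT pool 4 and 21.5 TPM in WT pool 6. The mutant mean was 139 ± 19.6 TPM and the WT mean 39.9 ± 26.0 TPM (SD, n = 2 each), a ratio of means of 3.48. The log2 fold change of 1.93 (95% interval 0.73 to 3.13, limma adjusted p = 0.116) was the largest among the 10 genes. The WT pools differed from each other by more than the mutant pools did, and the pool with the Afp signal was the higher of them. The log2 fold change was 2.63 without WT pool 4 and 1.23 without WT pool 6.

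Meg3 (chr12:109541001-109571726, plus strand) is a long noncoding RNA and the first of a string of maternally expressed noncoding RNAs. It was at 213 and 246 TPM in the mutant pools and at 154 and 109 TPM in WT pools 4 and 6. All 4 values were ordered as those of Dlk1 were, with a narrower range. The log2 fold change was 0.82 (SE 0.19, limma adjusted p = 0.112), and it was 1.06 without WT pool 4 and 0.57 without WT pool 6. Rian, the next noncoding RNA along the chromosome, was at 288 and 291 TPM in the mutant pools and at 235 and 189 TPM in the WT pools, a log2 difference of 0.45 (limma adjusted p = 0.141). The Dlk1 to Meg3 ratio in TPM was 0.588 and 0.621 in the mutant pools and 0.380 and 0.197 in WT pools 4 and 6. In the coverage column the ratios were 1.13 and 1.36 against 0.675 and 0.586. The pools kept their order, but the distance between them depended on the measure, most of all between the WT pools. The ratios cannot be read as one gene exceeding the other.

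Mest and Peg10 lie on chromosome 6 in separate imprinted domains. Mest (chr6:30723547-30748465, plus strand) encodes a hydrolase-like membrane protein long used as a marker of embryonic mesoderm. It was at 1778 and 1392 TPM in the mutant pools and at 1152 and 1048 TPM in the WT pools. Mest had the highest mean of the network in both genotypes and ranked 38th of all genes in Shh-/- pool 1 and 109th in WT pool 6. Mest was 0.52 higher on the log2 scale (SE 0.14, limma adjusted p = 0.136), 0.34 higher without Shh-/- pool 1 and 0.58 higher without WT pool 4. Copg2, a coat protein gene on the opposite strand whose end overlaps Mest by 912 bases, was at 91.0 and 82.0 TPM against 69.1 and 70.3 TPM, and the sources do not say whether the strand was used in the counting.

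Peg10 (chr6:4747306-4760517, plus strand) derives from a retrotransposon and is needed for the placenta. It was at 202 and 185 TPM in the mutant pools, 172 TPM in WT pool 4 and 101 TPM in WT pool 6. The values of 3 of the 4 pools lay close together and WT pool 6 lay below them. The log2 fold change of 0.55 (95% interval -0.12 to 1.22, limma adjusted p = 0.261) was 0.17 without WT pool 6 and 0.93 without WT pool 4. Sgce, which starts 99 bases from Peg10 on the other strand and is also paternally expressed, was at 51.1 and 48.2 TPM against 43.5 and 37.5 TPM, and was chosen after its values were seen.

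Ndn and Peg3 are paternally expressed genes of chromosome 7 that are high in neurons. Ndn (chr7:62348277-62349928, plus strand) encodes Necdin, a protein of the MAGE family that restrains cell division in neurons and other postmitotic cells. It was at 128 and 136 TPM in the mutant pools and at 104 and 97.2 TPM in the controls, a log2 difference of 0.39 (SE 0.10, limma adjusted p = 0.124). Peg3 (chr7:6703892-6730421, minus strand) encodes a large zinc finger protein. It was at 322 and 292 TPM in the mutant pools and at 319 and 358 TPM in WT, so that WT pool 4 fell between the mutant pools (log2 fold change -0.14, 95% interval -0.42 to 0.14). Without WT pool 4 the log2 fold change was 0.44 for Ndn and -0.22 for Peg3.

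Grb10 (chr11:11930508-12038683, minus strand) encodes an adaptor that binds the insulin and IGF1 receptors and dampens their signal, and it is maternally expressed in most tissues but paternally in neurons. It was at 823 and 745 TPM in the mutant pools and at 683 and 751 TPM in WT. The values interleaved, with a log2 fold change of 0.13 (95% interval -0.13 to 0.39, limma adjusted p = 0.449). This value was 0.06 without WT pool 4 and turned to -0.04 once GC content and gene length were corrected for.

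Plagl1 was the one member that was lower in both mutant pools. The gene (chr10:13060504-13131694, plus strand) encodes a zinc finger transcription factor that stops the cell cycle and is known to act on other imprinted genes, Igf2 and H19 among them. It was at 56.9 and 45.8 TPM in Shh-/- pools 1 and 2, against 116 and 167 TPM in WT pools 4 and 6. Both mutant values were below the lower WT value by a wide margin, with means of 51.3 ± 7.86 and 142 ± 36.1 TPM (SD, n = 2 each). The log2 fold change of -1.43 (SE 0.21, 95% interval -1.98 to -0.88) had a limma adjusted p of 0.0688, the lowest of the 10 genes and still above 0.05. It was -1.69 without WT pool 4 and -1.17 without WT pool 6. Plagl1 ranked 3580th and 4217th of all genes in the mutant pools and 1573rd and 1025th in the WT pools. Ltv1, a ribosome assembly gene that lies 46946 bases beyond Plagl1 on the other strand and was chosen after its values were seen, was at 59.1 and 61.3 TPM against 91.0 and 97.6 TPM (log2 fold change -0.64, limma adjusted p = 0.0728).

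Promoter windows from RefSeq (GRCm38.p6, 250 bases before to 50 after a start site) were found for 8 of 10 members, 15 windows in all. The windows of Plagl1, Dlk1 and Meg3 are shown because these genes had the 3 lowest adjusted p values in the network. Each reads 5′ to 3′ on the gene's own plus strand, and capitals mark CpG sites, the sites at which imprints are written.
Plagl1, chr10:13090582-13090881: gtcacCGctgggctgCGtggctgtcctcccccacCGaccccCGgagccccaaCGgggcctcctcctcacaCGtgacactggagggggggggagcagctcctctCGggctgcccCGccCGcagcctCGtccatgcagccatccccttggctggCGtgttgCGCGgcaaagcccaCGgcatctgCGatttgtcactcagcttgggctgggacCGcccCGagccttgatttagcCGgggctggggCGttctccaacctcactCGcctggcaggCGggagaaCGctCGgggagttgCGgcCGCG
Dlk1, chr12:109452573-109452872: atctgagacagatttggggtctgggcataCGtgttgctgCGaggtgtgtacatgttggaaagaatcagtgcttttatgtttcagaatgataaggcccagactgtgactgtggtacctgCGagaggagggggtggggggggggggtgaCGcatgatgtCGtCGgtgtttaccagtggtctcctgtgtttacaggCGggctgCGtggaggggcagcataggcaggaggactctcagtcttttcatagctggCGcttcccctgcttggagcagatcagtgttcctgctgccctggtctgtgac
Meg3, chr12:109540746-109541045: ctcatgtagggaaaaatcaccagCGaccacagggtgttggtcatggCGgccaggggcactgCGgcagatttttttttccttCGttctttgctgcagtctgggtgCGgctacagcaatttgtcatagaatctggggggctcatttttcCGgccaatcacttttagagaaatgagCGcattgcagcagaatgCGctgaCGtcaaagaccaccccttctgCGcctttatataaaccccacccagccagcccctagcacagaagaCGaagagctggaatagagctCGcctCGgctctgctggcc
The Plagl1 window holds 26 CpG sites at 70.7% GC, the Dlk1 window 9 at 55.7% and the Meg3 window 13 at 53.7%. Over all 15 windows of the network the median was 13 CpG sites and 59.3% GC, against 7 sites and 52.7% over all 32851 promoter windows. On both strands, the letters GACCACCCA, the core to which Gli factors bind, were in 0 of 15 windows and in 0.253% of all promoters. The letters GGGGCCCC, a core of the sites that Plagl1 is known to bind, were in 1 of 15, that of Peg3 at 201 bases before the start, and in 1.08% of all promoters. The TATA box letters TATAAA were in the Meg3 window shown, once on the gene's strand, 25 bases before the start, and once on the opposite strand, overlapping it from 29 bases before the start, and in 13.6% of all promoters. A match or its absence describes these letters in these windows only.

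Igf2, Mest, H19 and Meg3 also contain miRNA genes, 5 hairpins with 9 mature sequences in RefSeq and 9 different seeds. The 5′ arm of 1 hairpin from each host is shown because these RNAs are made from transcripts that stood higher in the mutants, with the seed (bases 2 to 8) in capitals.
miR-483-5p, in Igf2: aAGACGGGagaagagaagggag
miR-335-5p, in Mest: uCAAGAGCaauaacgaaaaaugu
miR-675-5p, in H19: uGGUGCGGaaagggcccacagu
miR-770-5p, in Meg3: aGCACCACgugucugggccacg
The hairpin of miR-483 was listed at 3.91 and 4.35 TPM in the mutant pools and 3.54 and 3.05 TPM in WT. That of miR-335 was at 0.760 and 0.341 TPM against 1.53 and 0.783 TPM, lower in both mutant pools although its host Mest was higher. Those of miR-675 and miR-770 overlapped between genotypes at no more than 0.638 TPM in any pool. These libraries were made from polyadenylated RNA, so the values are reads over the hairpin and not levels of the mature miRNA. Igf2os, an antisense RNA over Igf2, was at 11.1 to 13.1 TPM across the pools.

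The same fit was read for other imprinted genes, which the choice of the 10 did not use. Whether each of them is imprinted in this tissue was not tested, since the RNA was read without regard to parental allele. Of 61 listed, 50 were tested, and 1 passed an adjusted p of 0.05. Asb4, a maternally expressed gene for a subunit of a ubiquitin ligase, was at 114 and 109 TPM without Shh and at 45.3 and 47.2 TPM in the controls (log2 fold change 1.25, SE 0.10, limma adjusted p = 0.0323). Asb4 was called in the full set of pools only. With any one of the 4 pools left out its log2 fold change was 1.22 to 1.28. Such a fit holds 1 pool in a genotype, so it cannot show whether the call holds. Over all tested genes, both mutant pools lay above both WT pools for 38.0% and below them for 22.7%. For the 50 genes the counts were 17 above, 11 below and 22 overlapping. The median log2 fold change was 0.08, the same as over all tested genes. It was 0.14 without WT pool 4 and took either sign across the processing alternatives.

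Among the 22 other paternally expressed genes tested, 5 were higher in both mutant pools and 4 lower. Over all tested genes the shares were 38.0% and 22.7%. The median log2 fold change of the 22 was -0.02. Nnat, a small membrane protein gene of neurons and endocrine cells, was at 703 and 949 TPM against 445 and 419 TPM (log2 fold change 0.92, limma adjusted p = 0.0818). Snhg14, the long host RNA of the snoRNAs near Ndn on chromosome 7, was at 16.7 and 7.35 TPM against 26.2 and 28.6 TPM. Impact, a regulator of the stress kinase Gcn2, was at 54.4 and 51.5 TPM against 69.0 and 76.7 TPM, and Peg13, a noncoding RNA, at 14.6 and 12.6 TPM against 9.44 and 9.32 TPM. Slc38a4, an amino acid transporter, overlapped at 116 to 137 TPM. Paternally expressed genes thus stood on both sides.

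Among the 28 other maternally expressed genes tested, 12 were higher in both mutant pools and 7 lower. Over all tested genes the shares were 38.0% and 22.7%. The median log2 fold change of the 28 was 0.16. Cdkn1c, a cell cycle inhibitor that opposes growth, was at 461 and 543 TPM against 371 and 336 TPM (log2 fold change 0.50, limma adjusted p = 0.115). Gnas, which encodes a G protein subunit, was at 1543 TPM in Shh-/- pool 1 and at 669 to 961 TPM in the other 3 pools, so the groups overlapped. Dcn, which encodes the matrix proteoglycan decorin and was chosen after its values were seen, was at 43.6 and 65.6 TPM against 96.5 and 138 TPM (log2 fold change -1.09, limma adjusted p = 0.116). Phlda2, a placental growth inhibitor, was at 17.0 TPM in WT pool 4 and at 0.753 to 1.40 TPM elsewhere. Slc22a2, an organic cation transporter, was at 4.45 TPM in WT pool 4, at 0.084 TPM in WT pool 6 and listed at 0 in both mutant pools. Th, the enzyme that starts catecholamine synthesis, was at 1.11 and 5.11 TPM in the mutant pools and 5.17 and 9.32 TPM in WT.

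The partners of Igf2 in the IGF axis were read in the same way. Of 21 genes listed, 17 were tested, 0 had an adjusted p under 0.05 and 9 were higher at an unadjusted p under 0.05 in limma, where 17.5% of all tested genes were. For 12 both mutant pools lay above both WT pools, where 38.0% of all tested genes did, and 5 overlapped. Their median log2 fold change was 0.41. Several binding proteins, which hold IGFs outside the cell, were higher in both mutant pools. Igfbp4 was at 120 and 252 TPM against 67.0 and 51.2 TPM (log2 fold change 1.55, limma adjusted p = 0.116). Igfbp5 was at 778 and 519 TPM against 337 and 328 TPM (0.93, limma adjusted p = 0.104), and Igfbp2 at 257 and 248 TPM against 165 and 185 TPM (0.53, limma adjusted p = 0.0895). Igfbp3 and Htra1, a protease that cuts binding proteins, were higher by 0.63 on the log2 scale each. The receptor Igf1r was at 29.1 and 27.2 TPM against 22.2 and 20.4 TPM, while Igf2r, the maternally expressed receptor that clears Igf2, overlapped at 82.1 to 92.0 TPM. Igfbp1, a binding protein made mainly by liver, had the largest absolute log2 fold change of the list, -1.73, with 20.4 TPM in WT pool 4 and 0.232 to 0.668 TPM in the other 3 pools. Igf1r, Igf2r and Igfbp1 were chosen after their values were seen.

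Relatives of the members by sequence that are not known to be imprinted were also listed, and 14 of 15 were tested. None passed an adjusted p of 0.05 in limma. At an unadjusted p under 0.05 in limma 5 were higher, where 17.5% of all tested genes were. For 9 both mutant pools lay above both WT pools, where 38.0% of all tested genes did. The median log2 fold change of the 14 relatives was 0.35. Igf1 was at 19.6 and 17.9 TPM against 11.6 and 13.3 TPM. Rtl8a, Rtl8b and Rtl8c, relatives of Peg10 from the same class of retrotransposon, had log2 fold changes of 0.55, 0.46 and 0.94, and since their sequences are nearly identical the division of reads among them is uncertain. Maged1, a relative of Ndn, overlapped at 502 to 544 TPM, as did Maged2 at 322 to 451 TPM. Higher values in the mutants were seen in this list, as among the members.

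Genes that write, read or remove the imprinting mark had values on both sides of WT. Of 15 tested, 0 had an adjusted p under 0.05 in limma. At an unadjusted p under 0.05 in limma 3 were lower, where 7.22% of all tested genes were. In all, 5 were higher and 6 lower in both mutant pools, where 38.0% and 22.7% of all tested genes were. The median log2 fold change of the 15 was -0.09. Zfp445, a zinc finger protein that keeps imprints methylated, was at 40.1 and 37.6 TPM against 48.8 and 65.2 TPM. Smchd1, a chromatin protein that silences imprinted clusters and the inactive X, was at 47.5 and 41.5 TPM against 59.1 and 65.1 TPM. Tet1 and Tet2, which oxidise methylated cytosine, had log2 fold changes of -0.51 and -0.74. Trim28, the corepressor recruited by imprint-keeping zinc fingers, was at 552 and 525 TPM against 498 and 398 TPM, and Uhrf1, which guides methylation after replication, was at 178 and 174 TPM against 196 and 189 TPM.

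**Figure D4:**
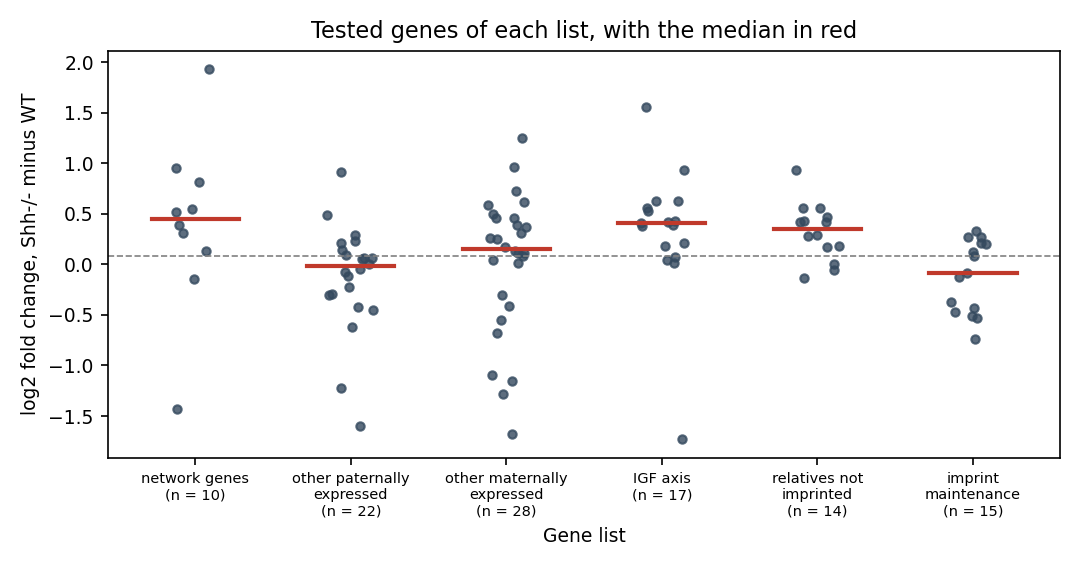
Log2 fold change, Shh-/- minus WT, of each tested gene (points) in the network and in 5 other lists, with list medians in red and the median of all tested genes at 0.08 as a dashed line. Medians are 0.45 for the network, -0.02 and 0.16 for other paternally and maternally expressed genes, 0.41 for the IGF axis, 0.35 for relatives and -0.09 for imprint maintenance.

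The neighbours of the members on their chromosomes were not shifted as a group. Of 48 tested genes within 250 kb of a member, 14 were higher and 15 lower in both mutant pools. Over all tested genes the shares were 38.0% and 22.7%. In limma 0 of the 48 had an adjusted p under 0.05 and 14 an unadjusted p under 0.05. These 14 were 7 higher and 7 lower, where 17.5% and 7.22% of all tested genes were. The median log2 fold change of the 48 was 0.06. Col1a2, a chain of type I collagen 205762 bases from Peg10, was at 237 and 210 TPM against 124 and 104 TPM (log2 fold change 0.97, limma adjusted p = 0.0602).

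Markers of other cell types also differed between the pools. Of all tested genes, 0.725% passed a limma adjusted p of 0.05. Both mutant pools lay above both WT pools for 38.0% of all tested genes and below them for 22.7%. Summed over 10 genes, neuron markers were at 553 and 580 TPM in the mutant pools and at 242 and 229 TPM in WT. Of the 10, 4 passed a limma adjusted p of 0.05. In both mutant pools 9 were higher, and Isl1 was lower, at 68.3 and 57.3 TPM against 93.1 and 116 TPM. Over 10 genes, muscle and heart markers were at 232 and 363 TPM against 127 and 128 TPM, with 2 of 10 past the threshold. Of these, 7 were higher in both mutant pools, while Myod1, Myog and Des overlapped. Over 8 genes, endothelial markers were at 359 and 417 TPM against 242 and 229 TPM, with 1 of 8. Mesenchymal markers, 10 genes, were at 1160 and 1056 TPM against 872 and 870 TPM, with 1 of 10. Within that list, 3 genes were lower in both mutant pools, among them Foxf1, at 0.848 and 9.57 TPM against 72.3 and 64.6 TPM, with Tbx5 and Osr1 beside it at log2 fold changes of -2.23 and -1.58. Epithelial markers summed to 605 to 694 TPM over 10 genes with the groups overlapping, while 5 of them, Foxa2, Nkx2-1, Foxa1, Trp63 and Cdh1, were lower and 3 were higher in both mutant pools. Erythroid markers overlapped at 11814 to 18340 TPM over 9 genes. All markers of these 6 lists were detected in every pool. In the list of hepatoblast and yolk sac genes, 1 and 3 of 8 were at 0 in the mutant pools, 0 in WT pool 4 and 1 in WT pool 6. Muscle, mesenchyme and neurons are tissues in which network genes are known to be high, and the part of these markers in the values of the 10 genes was not tested.

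**Figure D5:**
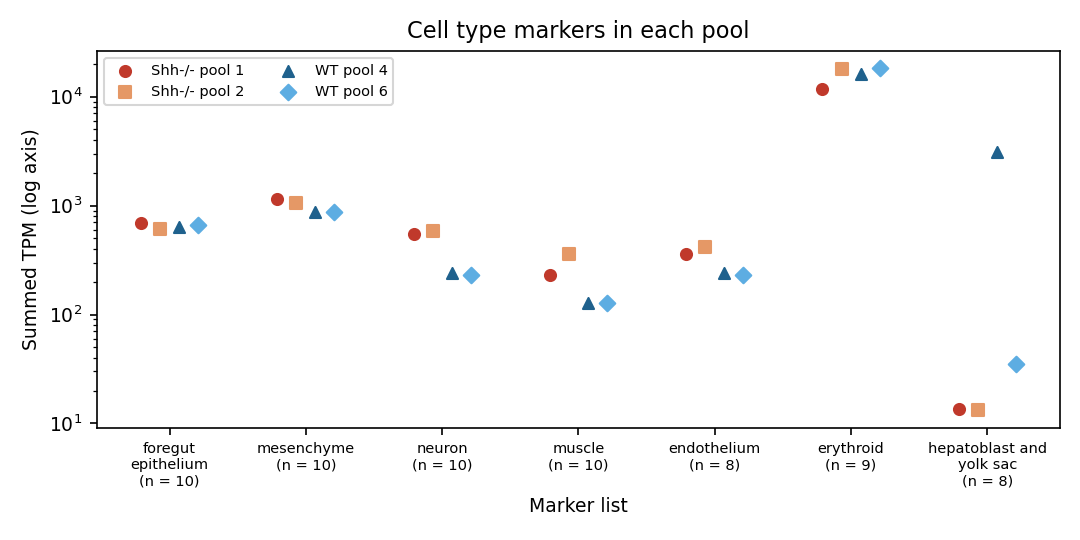
Summed level (TPM, log axis) of 7 lists of cell type markers in each pool, with the number of genes under each name. Neuron, muscle and endothelial sums are higher in both mutant pools, and the hepatoblast and yolk sac sum is 3082 TPM in WT pool 4 against 13.2 to 34.9 TPM in the other pools.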

How the data were processed

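The authors made libraries from polyadenylated RNA with a directional kit, sequenced single ends, aligned reads to mm10 with HISAT2 2.1.0 and deposited StringTie 1.3.6 gene tables holding TPM, FPKM and coverage, with no read counts. TPM values were summed per gene ID. Genes with a mean of at least 1 TPM over the 4 libraries were tested on log2(TPM + 1) with limma 3.58.1 in R 4.3.3 (lmFit, then eBayes with a trend), Shh-/- minus WT, with Benjamini-Hochberg adjustment over 16972 genes. A fold change on this scale understates that of low genes. From the same libraries the study reported many more genes at a false discovery rate under 0.05 than the 123 called here. Its methods name no test, so a gene not called here may be called there. Reads per library were derived from coverage and FPKM, assuming reads of 75 bases. No interval for counting error can be given without counts. The deposited FPKM and the coverage signal served as alternatives. Genome positions are those of the deposited tables. Besides the members, genes were named where they passed the threshold, overlapped a member, were cell type markers, or were among the 4 largest changes without overlap or the 2 highest levels of their list. One gene that this rule names is not reported here. The members and lists were chosen with earlier results of these data known. The fit was tested on simulated data.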

Additional observations from a re-analysis of the deposited data

How the results depend on the processing

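With 2 pools a genotype, 1 of them shallow and 1 with a liver or yolk sac signal, the fit has little power for single genes. Under 15 alternatives (FPKM, other filters, pseudocount, centring, variance models, GC content and length, and each pool left out), the number of members called stayed at 0, the lowest adjusted p of a member being 0.0560, for Plagl1. The 9 members other than Grb10 kept their direction, and Grb10 turned to -0.0434 with the correction for GC content and length. Median centring moved the median of all genes from 0.08 to -0.05, with H19 at 0.18 and Ndn at 0.26. Members at an unadjusted p under 0.05 numbered 3 without WT pool 6, against 7. Fits with a pool left out hold 1 pool in a genotype, so they cannot show whether a call holds. Without the TPM filter, 0 of the other imprinted genes were called. Their median log2 fold change turned to -0.0287 with the GC and length correction, -0.0511 with median centring and -0.0311 with quantile normalization, and ranged from -0.0366 to 0.1453 with each pool left out, and the cause was not tested. With each pool left out, members higher in the mutants without overlap numbered 7 to 8 and members lower 1 to 2. Over all tested genes the shares were then 45.0% to 50.7% and 31.1% to 33.6%. This check was added after the data were seen. All genes called numbered 123, against 0 without the filter, 69 with a pseudocount of 0.1, 189 among protein-coding genes and 0 to 16 with a pool left out. No paired analysis was possible because the groups share no replicate numbers.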

Other observations

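The interval that holds Dlk1, Meg3 and Rian also lists short RNA genes. Those named here, Gm24564 and Mir3072, went in opposite directions, and several others overlapped between genotypes. Gm24564, a snoRNA gene inside the span of Rian, was at 0.426 and 0.488 TPM in the mutant pools and at 4.06 and 3.44 TPM in the WT pools, a log2 difference of -1.70 (limma adjusted p = 0.0592), while Rian itself stood higher in the mutants. Mir3072, a miRNA gene beyond Rian, was higher in both mutant pools, as Rian was. It was at 2.14 and 2.82 TPM against 0.0236 and 0.930 TPM (log2 fold change 1.3, limma adjusted p = 0.141). Such short features hold few reads in libraries of polyadenylated RNA.

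Snurf, a paternally expressed gene of the Snrpn locus chosen after its values were seen, was at 8.22 TPM in WT pool 4 and listed at 0 in the other 3 pools.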
